A study of Felis catus with 23 samples.

Results

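The miRNAs hsa-miR-5700, hsa-miR-513a-3p and hsa-miR-4751, written below without the species prefix, are 3 of the 2026 microRNA (miRNA) names on a human array design that was hybridised with cat serum RNA. They were chosen because, in earlier results from the same arrays, they were higher in cats with HCM, hypertrophic cardiomyopathy, in which the heart wall thickens, and varied together. Their 9 probes, of 4944 miRNA probes, were found by the name that the scanner files give each probe. Serum came from 11 HCM cats and 12 healthy controls, with 1 array per cat and no treatment given in the labels. The labels give no age, sex, breed, disease stage or medication, so these may differ between the groups. The arrays lay on 3 slides. Slides 2 and 3 had 4 arrays of each group, and slide 1 had 4 healthy but 3 HCM arrays. HCM arrays were always in row 1 of a slide and healthy arrays in row 2, so position and disease cannot be told apart.

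miRNAs are short RNAs that guide Argonaute proteins to messenger RNAs, mostly through the seed near their 5′ end, and lower the output of those messages. Serum miRNAs come from blood cells, platelets and tissues, and are protected in protein complexes and vesicles. miR-513a-3p is one arm of the miR-513a hairpin, which in humans belongs to an X-linked cluster running from miR-506 to miR-514. That cluster is best known from the testis and has changed quickly among mammals. miR-5700 and miR-4751 are human names from sequencing catalogues, and no role in the heart is stated for them here. Every name below is that of a human or viral probe, and what cat RNA bound it was not tested.

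The arrays detected between 323 and 615 names each, counting a name when at least 1 of its probes was detected, and the 75th percentile intensity used for scaling lay between 90.5 and 699. Pairwise correlation of arrays over the 543 tested names lay between 0.834 and 0.974. No spot was saturated (0 on each array). As a check of the sample type, 5 of 8 red cell names were detected on at least 6 arrays, among them miR-451a and miR-486-5p on all 23. The rest of that list was nearly absent, with miR-16-5p detected on 3 arrays, miR-486-3p on 1 and miR-144-5p on 0. Of the 5 heart and muscle names listed (miR-1, miR-133a, miR-208a, miR-208b and miR-499a-5p) 0 were detected on at least 6 arrays. Detection was called on 0 arrays for miR-1 and on 2 for miR-208b. Other muscle names were looked up after values were seen. Of these, miR-499a-3p, miR-499b-3p and miR-499b-5p were detected on 0 arrays and miR-206 on 3. The remaining name, miR-133b, was detected on 10 arrays, 6 HCM and 4 healthy. It read 3.68 ± 2.17 on HCM arrays (SD, n = 11) and 3.13 ± 1.10 on healthy arrays (SD, n = 12). With the mean of the 3 members it had r = -0.35 within groups. Precision is limited by how many arrays there were.

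All 3 names were higher on average in HCM serum, and the groups overlapped for each. Values are log2 of the processed spot intensity after scaling each array, with a floor at 2.45 below which signals were not ordered. Because the names were chosen on this difference, it is described here and not tested. Over all 543 tested names the median difference, HCM minus healthy, was -0.10, and its 5th and 95th percentiles were -0.45 and 0.41. limma called 0 of 543 names between the groups (0%, adjusted p threshold 0.05), so 0 of the 3 members were called, while 37 names had an unadjusted p under 0.05. On the scanner's own total signal per name, the difference was 1.44 for miR-5700, 0.98 for miR-513a-3p and 0.92 for miR-4751. There limma called 1 of 543 names (0.184%), which was miR-5700. That count was added after seeing the data, and as miR-5700 was chosen on this contrast nothing is read from the call. The direction depended on the background correction and its added offset. After normexp, which added an offset of 50 to every signal before scaling, the difference was 0.40 for miR-513a-3p. It was -0.0884 for miR-5700 and -0.14 for miR-4751, whose unscaled processed intensities reached at most 26.6 and 20.1. In that setting the mean of the 3 fell as array brightness rose, with r = -0.93 within groups. Normexp without the offset was not tested.

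hsa-miR-513a-3p was the brightest of the 3 and was detected on all 23 arrays. Its log2 value ran from 5.05 to 7.20 in HCM, with a median of 6.48, and from 4.37 to 6.62 in healthy serum, with a median of 5.33. The unscaled intensity had a median of 110.0 in HCM and 32.2 in healthy serum. The HCM mean was 6.43 ± 0.67 (SD, n = 11) and the healthy mean 5.43 ± 0.73 (SD, n = 12), so that HCM minus healthy was 1.001 (SE 0.29). On the arrays, 5 of 11 HCM values lay above the highest healthy value, and 7 of 12 healthy values lay at or above the lowest HCM value.

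hsa-miR-5700 was close to the detection limit in healthy serum. Detection was called on 10 of the 11 HCM arrays but on 3 of the 12 healthy ones, and 1 HCM array and 5 healthy arrays sat at the floor. The log2 value in HCM ran from the floor to 4.52 with a median of 3.60, and in healthy serum from the floor to 3.73 with a median of 2.58. HCM arrays averaged 3.65 ± 0.71 (SD, n = 11) and healthy arrays 2.76 ± 0.43 (SD, n = 12), which puts HCM higher by 0.89 (SE 0.25). Detection was called before scaling and so also follows array brightness: healthy replicates 22 and 25 read 3.19 and 3.37 without it, and healthy replicate 15 read 2.56 with it.

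hsa-miR-4751 was the dimmest. Detection was called on 8 HCM arrays and 1 healthy array, and the floor held 3 HCM arrays and 10 healthy ones. Healthy replicates 23 and 25, at 3.21 and 2.59, were the 2 healthy arrays above the floor, and neither passed the detection call. In HCM the value ran from the floor to 4.15 with a median of 3.14. HCM arrays averaged 3.19 ± 0.61 (SD, n = 11) and healthy arrays 2.52 ± 0.22 (SD, n = 12). The gap of 0.67 (SE 0.20) moved with the floor: lowering it gave 1.03, and raising it gave 0.48.

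Array brightness moved in the same direction as the names. Log2 of the 75th percentile intensity, by which arrays were scaled, was 8.22 ± 0.49 on HCM arrays (SD, n = 11) and 7.80 ± 0.91 on healthy arrays (SD, n = 12), and the log2 bright corner control spots were at 10.77 ± 0.77 and 9.87 ± 1.07. The detection calls and unscaled intensities above rest on signals before scaling. The part of brightness in the group difference was not tested.

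For each of the 3 names, 5 of 11 HCM arrays lay above the highest healthy array. Over all tested names 10 of 543 (1.84%) had at least 5 such arrays, and as the names were chosen on this contrast nothing is read from their being among them.

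**Figure D1:**
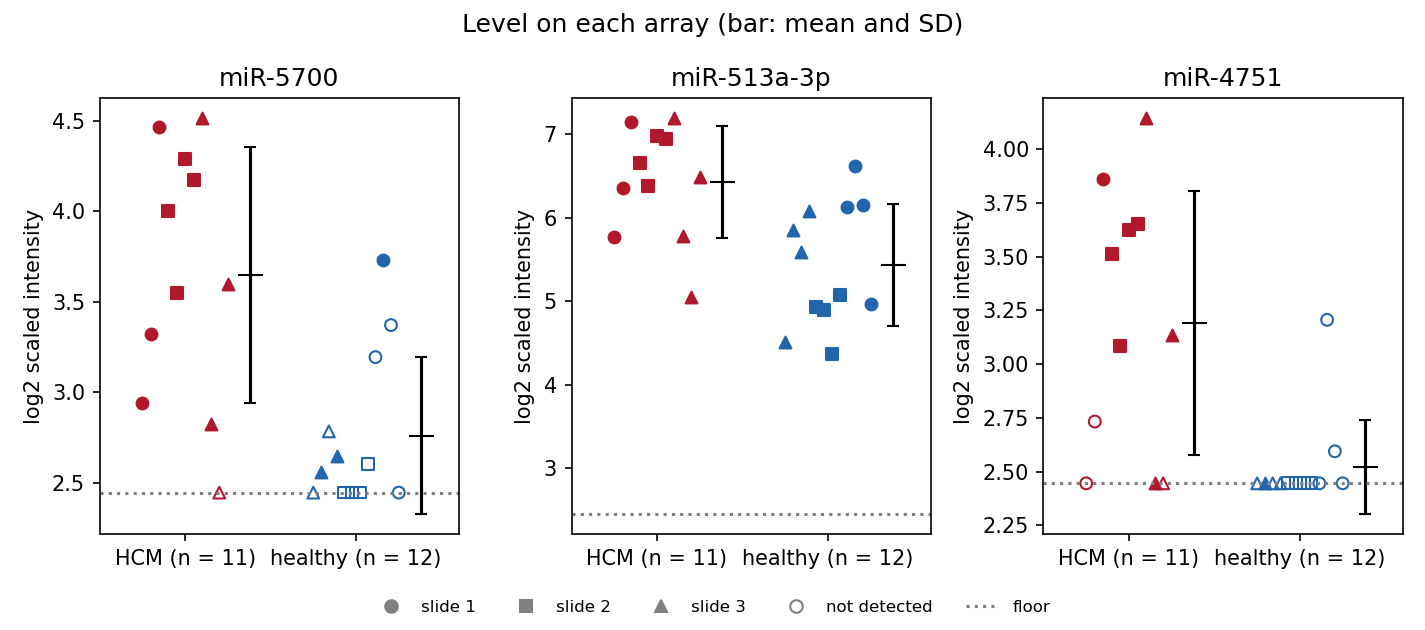
Log2 scaled intensity of miR-5700, miR-513a-3p and miR-4751 on each of the 23 arrays, by group, with the slide as the marker shape, open markers for arrays without detection, the floor as a dotted line and the mean and SD as a bar. On slide 2 (squares) the HCM and healthy arrays do not overlap for any of the 3 names, while on slides 1 and 3 they do.

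The probes of a name gave nearly the same difference for miR-513a-3p and miR-5700, and less so for miR-4751. The 4 probes of miR-513a-3p differed between groups by 0.96 to 1.03 on the log2 scale, and each was detected on all 23 arrays. Those of miR-5700, 3 in number, differed by 0.88 to 0.89. The 2 probes of miR-4751 differed by 0.67 and 0.49, and the second of these was at the floor on 11 of 12 healthy arrays. After removing group means, the other probes of a name followed its brightest probe with Pearson r between 0.972 and 0.998 over the 23 arrays. The spots were scattered over the array: those of miR-5700 lay between rows 5 and 375, those of miR-513a-3p between rows 5 and 345, and those of miR-4751 between rows 20 and 358. Each probe had between 7 and 15 spots. Probes of 1 name were read on the same arrays and designed for 1 miRNA, so they are not replicates of the group difference.

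The authors' deposited log2 values hold the same 9 probes with no floor, and their normalization is not stated. On that scale miR-5700 averaged 3.88 ± 0.62 over the HCM arrays and 2.88 ± 0.46 over the healthy ones (SD, n = 11 and 12), 1.001 apart. miR-513a-3p was 6.54 ± 0.61 and 5.41 ± 0.70, a difference of 1.13. miR-4751 was 3.40 ± 0.62 and 2.35 ± 0.51, a difference of 1.06. The difference of miR-4751, whose healthy arrays mostly sat at the floor in the scanner values, was thus similar to that of the brighter names. Over the 9 probes the differences on the deposited scale ran from 1.001 to 1.15. limma called 4 of 543 names on these values (0.737%), 3 of them the members, which is the kind of result they were chosen on.

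The difference was in the same direction on each slide and was widest on slide 2. For miR-513a-3p slides 1, 2 and 3 gave 0.45, 1.92 and 0.62. On slide 2 the HCM arrays read 6.66, 6.38, 6.98 and 6.94 (replicates 5 to 8) and the healthy arrays 4.93, 4.90, 4.37 and 5.08 (replicates 18 to 21). These 2 sets do not overlap. For miR-5700 the slides gave 0.39, 1.52 and 0.74. Its HCM arrays on slide 2 read 4.002, 3.55, 4.29 and 4.17, and of the healthy arrays replicates 18, 19 and 20 were at the floor and replicate 21 read 2.60. For miR-4751 the slides gave 0.34, 1.02 and 0.60, and all 4 healthy arrays of slide 2 were at the floor.

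Slide 1 showed a different order. Healthy replicate 23, the highest healthy array for all 3 names (miR-513a-3p 6.62, miR-5700 3.73, miR-4751 3.21), lay above HCM replicates 1 and 2, which read 5.77 and 6.35 for miR-513a-3p, 2.94 and 3.32 for miR-5700, and 2.45 (the floor) and 2.73 for miR-4751. HCM replicate 3 was highest on that slide for each name, at 7.15, 4.47 and 3.86. On slide 3 the HCM arrays spread most: replicate 9 was the highest of all 23 arrays for each name (7.20, 4.52 and 4.15), while replicate 11 was at the floor for miR-5700 and miR-4751 and read 5.05 for miR-513a-3p.

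Whether slides differed was tested, since slide was not used to choose the names. limma's F test for slide, with group as a covariate, called 0 of 543 names (0%), while 69 had an unadjusted p under 0.05. For miR-513a-3p, which was above the floor on all 23 arrays, limma's adjusted p was 0.587. It was 0.559 for miR-5700 and 0.815 for miR-4751, which had arrays at the floor and passed the filter on detection mostly through HCM arrays. For that reason nothing is read from the values of miR-5700 and miR-4751. The F test of whether the difference between HCM and healthy varied with slide also called 0 of 543 names (0%), with 13 at an unadjusted p under 0.05. The members' own differences by slide are left as a description, since that contrast chose them and since all healthy arrays of slides 2 and 3 were at the floor for miR-4751.

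**Figure D2:**
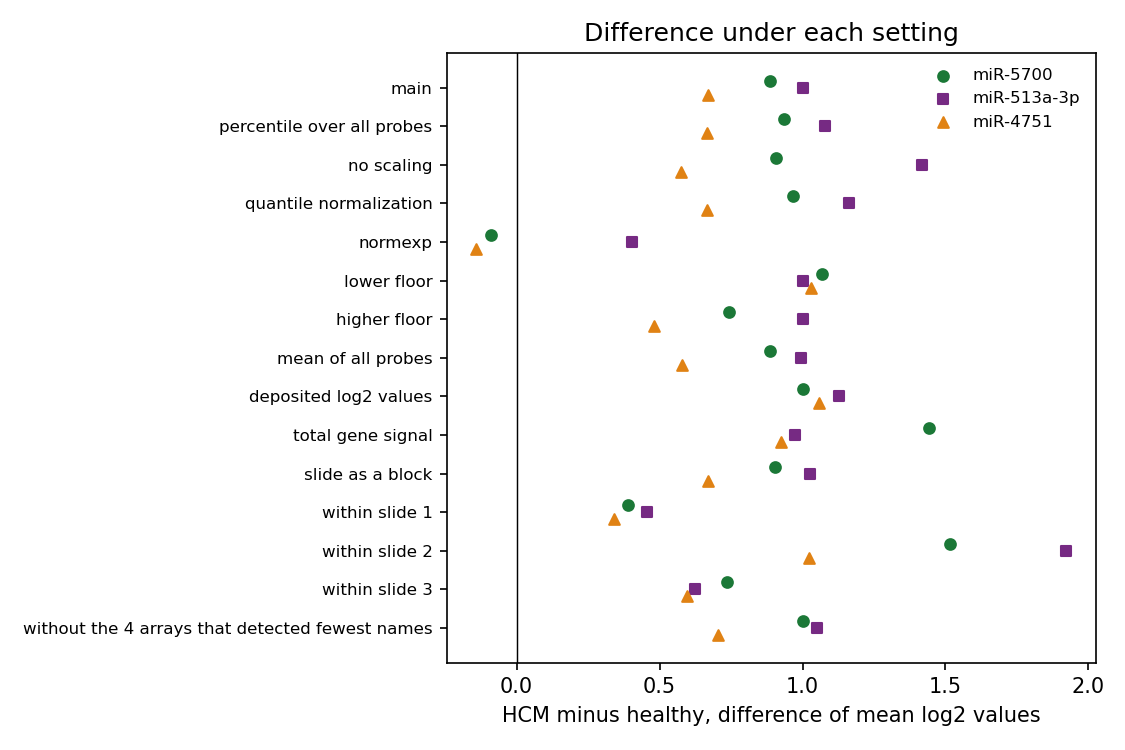
Difference of mean log2 values, HCM minus healthy, for the 3 names (x axis) under the main setting and each alternative (y axis). All points lie above 0 except those of miR-5700 and miR-4751 after normexp background correction with an offset of 50, at -0.0884 and -0.14.

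The 3 names varied together among cats of 1 group. The names were chosen as varying together, so the correlations are descriptions over arrays that share slides, scaling and floor. After removing group means, the scanner values gave Pearson r of 0.88 for miR-5700 with miR-513a-3p, 0.92 for miR-5700 with miR-4751 and 0.72 for miR-513a-3p with miR-4751 (n = 23). Spearman rho was 0.90, 0.89 and 0.75. The mean r of the 3 pairs was 0.84, against a median of 0.01 over all 147153 pairs of tested names. Of all pairs, 3.27% had an r at or above that of miR-513a-3p with miR-4751.

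The correlation was seen in both groups. Among the 11 HCM arrays the mean r was 0.96, and among the 12 healthy arrays, where miR-4751 was mostly at the floor, it was 0.73. On the deposited values, which have no floor, the mean r was 0.93 over all arrays, 0.99 in HCM and 0.90 in healthy serum. The pair of miR-513a-3p and miR-4751 moved most between the 2 scales, from 0.72 to 0.96. Within slides 1, 2 and 3 the mean r on the scanner values was 0.89, 0.77 and 0.85, and without the 2 arrays farthest from the median it was 0.77.

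**Figure D3:**
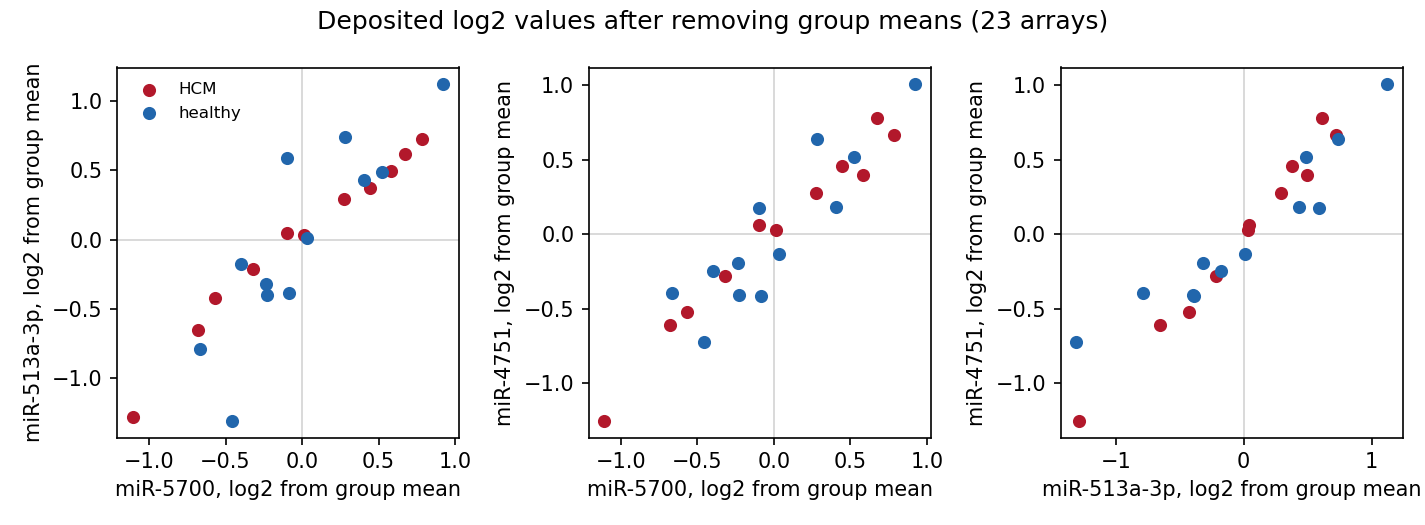
Deposited log2 values of each pair of names after subtracting the group mean, 1 point per array, in red for HCM and blue for healthy. Points of both groups rise together in each panel, with r of 0.90, 0.95 and 0.96 from left to right.

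Averaged over the 3 names, the cats ordered as follows. HCM replicates 9, 3 and 7 were highest, at mean log2 values of 5.29, 5.16 and 4.97, and HCM replicates 11, 10 and 1 were the lowest HCM arrays, at 3.32, 3.69 and 3.72. Healthy replicates 23, 25 and 22 led their group at 4.52, 4.04 and 3.92, all 3 on slide 1. The lowest was healthy replicate 20 at 3.09. The 3 low HCM arrays thus lay among the healthy arrays, below the healthy arrays that led their group.

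Measures of array quality were then set against this mean, since the choice of names did not use them. The 8 measures were array brightness, names detected, negative control spots, local background, the labelling and hybridization spikes, the bright corner spots, and the log2 difference of miR-451a and miR-23a-3p, a measure of haemolysis. With group means removed, 0 of 8 passed an adjusted p of 0.05 by a 2-sided permutation test within groups (100000 resamples), and 0 had an unadjusted p under 0.05 for r or rho. Over all arrays the largest r in size was that of the labelling spike, with r = -0.25 (permutation p 0.268, adjusted p 0.903) and rho = -0.27 (permutation p 0.222, adjusted p 0.797). Without the 2 arrays farthest from its median r was -0.35, and within slides 1, 2 and 3 it was -0.73, -0.64 and -0.002. The hybridization spike had r = -0.18 (permutation p 0.427, adjusted p 0.903) and rho = -0.13 (permutation p 0.565, adjusted p 0.797). Its r was -0.07 without the 2 farthest arrays, and -0.51, -0.46 and -0.45 within slides 1, 2 and 3. The negative control spots, a measure of background, had r = 0.22 (permutation p 0.345, adjusted p 0.903) and rho = 0.23 (permutation p 0.318, adjusted p 0.797). Their r was 0.50 without the 2 farthest arrays, and 0.15, 0.77 and -0.25 within slides 1, 2 and 3. Log2 array brightness had r = -0.14 (permutation p 0.475, adjusted p 0.903) and rho = -0.16 (permutation p 0.453, adjusted p 0.797), with -0.29 without the 2 farthest arrays and -0.21, -0.004 and 0.01 within slides. The haemolysis measure had r = -0.008 (permutation p 0.971, adjusted p 0.971) and rho = -0.09 (permutation p 0.697, adjusted p 0.797), with -0.13 without the 2 farthest arrays. Its within-slide values were 0.46, -0.84 and -0.14. Its group means were -1.45 ± 1.32 in HCM (SD, n = 11) and -0.58 ± 1.75 in healthy serum (SD, n = 12). With 7 or 8 arrays a slide, these values are loose. Array brightness is also the value by which arrays were scaled, so its r is not independent of the scaling. Without scaling 4 of 8 measures passed, and r for brightness was 0.60 (permutation test, adjusted p 0.00520). After normexp 4 of 8 passed as well, and r for brightness was -0.93 (permutation test, adjusted p 4e-05).

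Other names that varied with the 3 were found by the same residuals. Over the 540 other tested names, r with the mean of the 3 had a median of 0.09 and ran from -0.47 to 0.73. An r above 0.5 was reached by 13 names, above 0.6 by 4 and above 0.7 by 1, and 0 reached 0.8. For comparison, the 3 pairs among the members averaged 0.84.

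The 3 names most like them were bright and were detected on all 23 arrays. miR-3679-5p had r = 0.73 (rho 0.70) and averaged 10.09 ± 0.55 on HCM arrays against 9.71 ± 0.52 on healthy ones. miR-630 had r = 0.69 (rho 0.67) and read 13.12 ± 0.79 and 12.33 ± 1.19. miR-5703 had r = 0.68 (rho 0.68) and read 12.46 ± 0.76 and 11.69 ± 1.20 (SD, n = 11 and 12 throughout). miR-630 and miR-5703 moved almost as 1 signal, with r = 0.998 between them, and miR-3679-5p followed them at 0.88 and 0.87. These 3 had r of 0.67 to 0.68 with the members on the deposited values.

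The next 12 were, from the highest r, miR-583 (0.62), miR-3692-5p (0.58), miR-4746-3p (0.57), the viral name kshv-miR-K12-10b (0.57), miR-516a-5p (0.54), miR-5189 (0.52), miR-345-5p (0.52), miR-5100 (0.51), miR-4481 (0.50), miR-3667-5p (0.50), miR-1471 (0.50) and miR-1305 (0.47). miR-583 was detected on 18 arrays and miR-3692-5p on 6, with 17 arrays at the floor. The likeness of several rested on 1 group: miR-4481 had r = 0.88 among HCM and -0.07 among healthy arrays, miR-516a-5p 0.79 and 0.11, and miR-4746-3p 0.77 and 0.19. These differences between groups were not tested. Of the 15 names, 12 stayed among the 15 highest with slide means removed, and 12 on the deposited values. The median r among pairs of the 15 was 0.43.

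**Figure D4:**
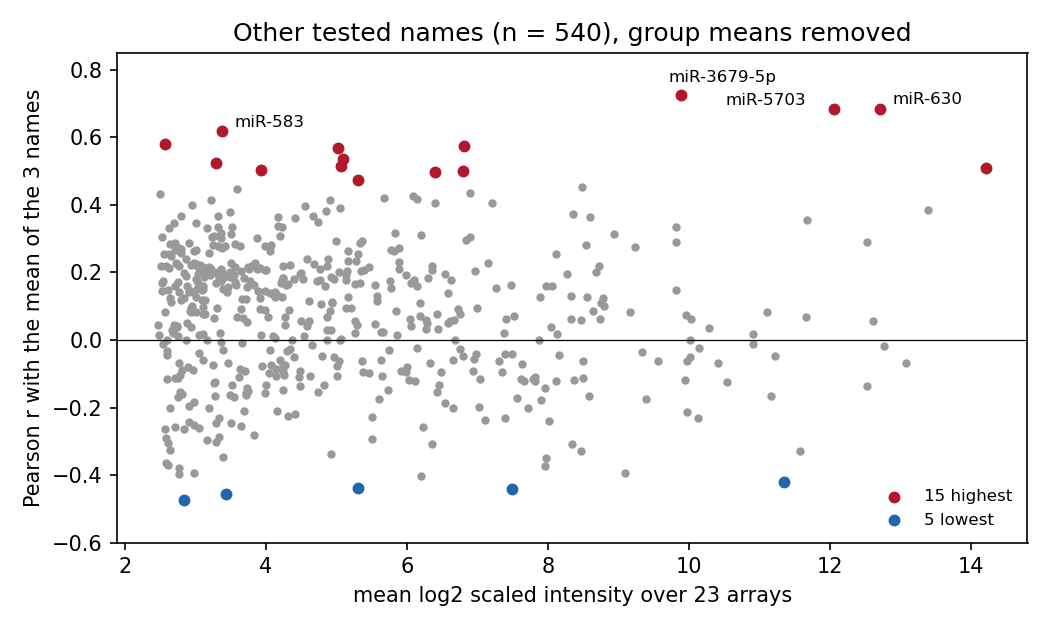
Pearson r of each of the 540 other tested names with the mean of miR-5700, miR-513a-3p and miR-4751 after removing group means (y axis), against the name's mean log2 scaled intensity over 23 arrays (x axis). The 15 highest names, in red, span levels from 2.57 to 14.22, and the bright names miR-3679-5p, miR-630 and miR-5703 lie at the top right.

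The group difference was not used to rank these names, but the members they were ranked against were chosen as higher in HCM. The 15 are therefore not independent of that choice. Nor are they independent of each other, with r = 0.998 for miR-630 and miR-5703, and nothing is read from their direction. Of the 15, 13 were on average higher in HCM, beside 167 of the remaining 525 names, and their median difference was 0.22 beside -0.11. It ran from -0.08 for miR-1305 to 0.85 for kshv-miR-K12-10b, and miR-630 and miR-5703 differed by 0.79 and 0.77. With 0 of 543 names called by limma (0%), none of the 15 was called. The names with the lowest r were miR-1915-5p (-0.47), kshv-miR-K12-8-3p (-0.46), miR-4644 (-0.44), miR-378f (-0.44) and miR-4505 (-0.42). Of these, miR-4644 averaged 7.18 ± 0.53 over the HCM arrays and 7.77 ± 0.47 over the healthy ones.

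Relatives of miR-513a-3p in the human X-linked cluster showed other values. The array carries 18 names of that cluster, of which 12 were nowhere detected by their brightest probe. Among the 18, 3 were tested, miR-513a-3p itself, miR-513c-3p and miR-514b-5p, beside 543 of all 2026 names on the array. miR-514b-5p was detected on all 23 arrays, at 5.75 ± 0.30 for HCM and 5.88 ± 0.46 for healthy arrays (HCM minus healthy -0.13), and had r = 0.26 with the mean of the 3. miR-513c-3p was detected on 5 HCM and 5 healthy arrays, differed by -0.25 and had r = 0.04. Of these names 0 were called by limma. The other arm of the same hairpin, miR-513a-5p, was detected on 5 arrays, 2 HCM and 3 healthy, and reached at most 3.66.

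Markers of blood cells and liver were compared in the same way. The 5 tested red cell names had r between -0.12 and 0.07 with the mean of the 3 and a median difference of 0.07, from -0.90 for miR-451a to 0.41 for miR-144-3p. The 3 tested platelet and myeloid names, of 5, had r between -0.13 and 0.16 and a median difference of 0.16, from -0.56 for miR-223-3p to 0.29 for miR-24-3p. Of the 2 liver names only miR-122-5p was tested, with r = -0.30 and a difference of 0.02. Whether these cells had a part in the level of the 3 names was not tested.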

How the data were processed

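Serum RNA from 11 HCM and 12 healthy cats was hybridised to 1-colour (Cy3) arrays. Per the file headers, the deposited scanner files hold spot intensity on a linear scale from Agilent Feature Extraction 10.7.3.1, background subtracted in the processed signal and not normalized between arrays, and flags of 0 or 1 per spot, which hold other information. The authors' deposited series table holds log2 values for 1758 probes. Set against log2 of scanner signals above 8, its columns had r between 0.987 and 0.9998, so they rose with the signal. Lower signals were not compared, and the healthy medians of miR-5700 and miR-4751 were at 4.83 and 2.66. Normalization and centring of the deposited values stay unknown, and the column medians lay between 2.98 and 3.31.

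Control spots and outlier spots (1.81% to 3.95%) were left out and spots averaged per probe. Detection of a probe required the scanner's above-background flag on 50% or more of its spots. Each array was scaled by its 75th percentile, taken over those 508 probes that passed detection on every array, then floored at 5.45 (the 5th percentile of detected signals) and log2 transformed. Each name took its brightest probe, and 543 names detected on at least 6 arrays were tested with limma 3.58.1 (lmFit and eBayes, Benjamini-Hochberg adjustment) in R 4.3.3. Python 3.11.15 with numpy 2.4.6 and pandas 2.3.3 did the rest. The fit and the permutation test were tested on simulated data.

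The members and lists were chosen with earlier results of these data known. Named are the members, the 15 names with the highest and 5 with the lowest r with their mean, the miR-506 to miR-514 names, the other arm, and blood, liver and muscle markers. Names sharing a seed with a member were not looked up, as no sequences were used here. The normexp alternative used the median spot signal in place of the mean spot signal that was planned, and added an offset of 50 before scaling. The groups share no replicate numbers, so nothing was paired.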

Additional observations from a re-analysis of the deposited data

How the results depend on the processing

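No paired analysis was possible because the groups share no replicate numbers. Of 233 values recomputed under alternatives, 211 kept their direction and their side of the threshold or moved by less than the spread between arrays. After normexp the difference of miR-5700 was -0.0884 and that of miR-4751 -0.14, and within slide 2 the difference was 1.52 for miR-5700 and 1.92 for miR-513a-3p. Leaving out each array in turn gave 0.80 to 1.01 for miR-5700, 0.90 to 1.14 for miR-513a-3p and 0.57 to 0.74 for miR-4751, and a mean correlation of the 3 pairs of 0.81 to 0.86, which was 0.93 on the deposited values. Without scaling, and after normexp, 4 of 8 array measures passed, with r for array brightness of 0.60 and -0.93. After normexp r was 0.0361 for the labelling spike and 0.29 for the haemolysis measure. The haemolysis measure was at 0.00212 with a lower floor, 0.0240 with slide means removed and 0.46 within slide 1, and brightness at 0.0378 on the deposited values and 0.00996 within slide 3. The slide test called 1 name after quantile normalization, 1 with a higher floor and 1 on the total gene signal. HCM against healthy called 1 name with a lower floor, 4 on the deposited values and 1, miR-5700, on the total gene signal, where its difference was 1.44. The total gene signal was added to these counts after seeing the data. As the members were chosen on this contrast, nothing is read from calls of members. The cause of these changes was not tested. The dim names miR-5700 and miR-4751 reached unscaled processed intensities of at most 26.6 and 20.1, and the part of low signal was not tested.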
